A study of Homo sapiens with 6 samples.

Results

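The 10 genes of the AP-1 and EGR transcription factor families named here were followed in NCI-H660 cells, an established line of neuroendocrine prostate cancer (NEPC). They were the Fos genes FOS, FOSB, FOSL1 and FOSL2, the Jun genes JUN, JUNB and JUND, and the EGR genes EGR1, EGR2 and EGR3, chosen by symbol, and all 10 were found among the 28008 symbols of the count table. Each culture carried a tet-inducible shRNA that targets MUC1, the gene of the MUC1-C transmembrane subunit. The comparison asked which transcripts changed when that gene was silenced. The DOX-negative cultures received 0.1% DMSO as vehicle (n = 3) and the DOX-positive cultures 500 ng/ml doxycycline (DOX), the drug that switches on the hairpin, for a week per the study's methods (n = 3). All 6 libraries came from 1 line with 1 MUC1 hairpin. No control hairpin exposed to DOX is among the samples, so DOX exposure and MUC1 silencing cannot be told apart. The labels describe cultures in triplicate without saying how they were separated, so p values measure the spread between these libraries.

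AP-1 is a dimer of basic leucine zipper proteins, usually 1 Jun protein paired with 1 Fos protein, that binds TPA response elements (TRE) and related cyclic AMP response elements (CRE). FOS, FOSB, JUNB and EGR1 are immediate early genes, transcribed quickly and briefly after growth factor or stress signals through SRF, ternary complex factors and CREB. EGR proteins are zinc-finger factors that bind GC-rich sites and are restrained by the NAB corepressors.

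Sequencing depth was 47620696 to 74061121 counts a library, and the 10 genes together held 0.0916 to 0.116% of them. The targeted gene followed the labels, with MUC1 falling by 1.32 on the log2 scale (edgeR, SE 0.096, adjusted p = 0.00017) and no overlap between the groups. Transcripts of 8 neuroendocrine markers summed to 895 to 1007 CPM (counts normalized to library size) without and 800 to 890 CPM with DOX, and 2 of the 8 fell by the same test (NCAM1 and INSM1). Of 7 fibroblast markers 3 passed the count filter, and COL1A1 and LUM rose (1 of the 2 by limma-voom). COL1A2, the most abundant without DOX, was at 18.1 ± 3.48 CPM without and 11.1 ± 3.77 CPM with DOX (SD, n = 3, edgeR adjusted p = 0.20). The list had summed levels of 25.2 to 30.7 CPM without and 23.5 to 27.9 CPM with DOX and COL3A1 at 0 in every library. Of 5 luminal prostate markers 2 passed the filter, and neither edgeR nor DESeq2 called any (0 at an unadjusted p under 0.05), with summed levels of 2.79 to 3.36 CPM without and 2.36 to 3.06 CPM with DOX, and KLK3 was at 0 in every library. In bulk libraries of this kind, fewer cells that express a gene and less RNA per cell cannot be told apart.

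CRE, CArG and TRE-like elements near the start site are the classical control elements of immediate early genes, so promoter windows are shown for 5 members whose libraries did not overlap between the groups. Sequences are from RefSeq (GRCh38.p14), which had a promoter entry for 8 of the 10 genes, and each runs 5′ to 3′ on the gene's own strand over the 150 bases before its annotated start. The windows are chr14:75278678-75278827 (plus strand) for FOS, chr19:45467846-45467995 (plus) for FOSB, chr2:28392708-28392857 (plus) for FOSL2, chr1:58784048-58784197 (minus) for JUN and chr5:138465329-138465478 (plus) for EGR1. Capitals mark the CRE half-site TGACG or its reverse complement CGTCA, the TATA motif TATAAA, the CArG box bound by SRF, and the TRE-like sequence TGACATCA of JUN.
FOS: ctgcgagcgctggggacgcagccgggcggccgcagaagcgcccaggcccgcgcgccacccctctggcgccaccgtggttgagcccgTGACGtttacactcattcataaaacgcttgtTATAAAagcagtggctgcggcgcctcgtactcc
FOSB: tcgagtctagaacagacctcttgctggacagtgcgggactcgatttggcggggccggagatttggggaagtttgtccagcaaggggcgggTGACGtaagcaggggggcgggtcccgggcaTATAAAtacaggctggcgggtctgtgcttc
FOSL2: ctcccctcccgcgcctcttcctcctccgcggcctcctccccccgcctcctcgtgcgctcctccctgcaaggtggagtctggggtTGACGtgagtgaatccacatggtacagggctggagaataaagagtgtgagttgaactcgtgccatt
JUN: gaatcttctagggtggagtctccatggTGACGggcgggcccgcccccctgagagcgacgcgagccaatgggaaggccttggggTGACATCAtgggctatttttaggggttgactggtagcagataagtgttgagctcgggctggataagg
EGR1: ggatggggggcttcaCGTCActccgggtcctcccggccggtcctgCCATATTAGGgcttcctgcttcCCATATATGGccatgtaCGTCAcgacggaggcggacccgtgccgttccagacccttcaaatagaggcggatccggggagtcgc

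In FOS the CRE half-site began at position -64 and the TATA motif at -33, counting back from -1 at the base before the start. FOSB had the same pair in the same order, at -60 and -30. In EGR1 a pair of CArG boxes, at -105 and -83, lay between a pair of CRE half-sites on the minus strand. JUN had its TRE-like sequence at -67, and FOSL2 had a CRE half-site at -66 and a TRE (TGACTCA) at position 5 after the start, outside the printed window. Among all 35116 promoter windows of 300 bases in the RefSeq table, 24.6% held a CRE half-site and 7.33% a TATA motif, the latter searched on the gene's strand only and the others on both strands. Each of the 8 members with an entry had a CRE half-site in at least 1 of its windows. The rarer motifs were the TRE (4.95%), the TRE-like sequence of JUN (2.61%) and the CArG box (1.29%). These matches are descriptions of the letters and not evidence of binding, and the printed windows do not reach the serum response element of FOS, which is known to lie further upstream.

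Of the 10 genes, 4 were called at an adjusted p under 0.05 by edgeR's quasi-likelihood test over all 17026 tested genes. FOS and EGR1 fell, FOSL1 and FOSL2 rose, and the other 6 did not pass. Over all tested genes 4.87% were called, 2.91% higher and 1.96% lower with DOX. The groups did not overlap in normalized CPM for 6 of the 10 members, against 28.1% of all tested genes. By family, 3 of 4 Fos genes, 0 of 3 Jun genes and 1 of 3 EGR genes were called. Before adjustment, with an edgeR p under 0.05, the Jun genes numbered 2 of 3 and the members 7 of 10, against 3597 of all 17026 tested genes. DESeq2 also called 0 Jun genes.

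**Figure D1:**
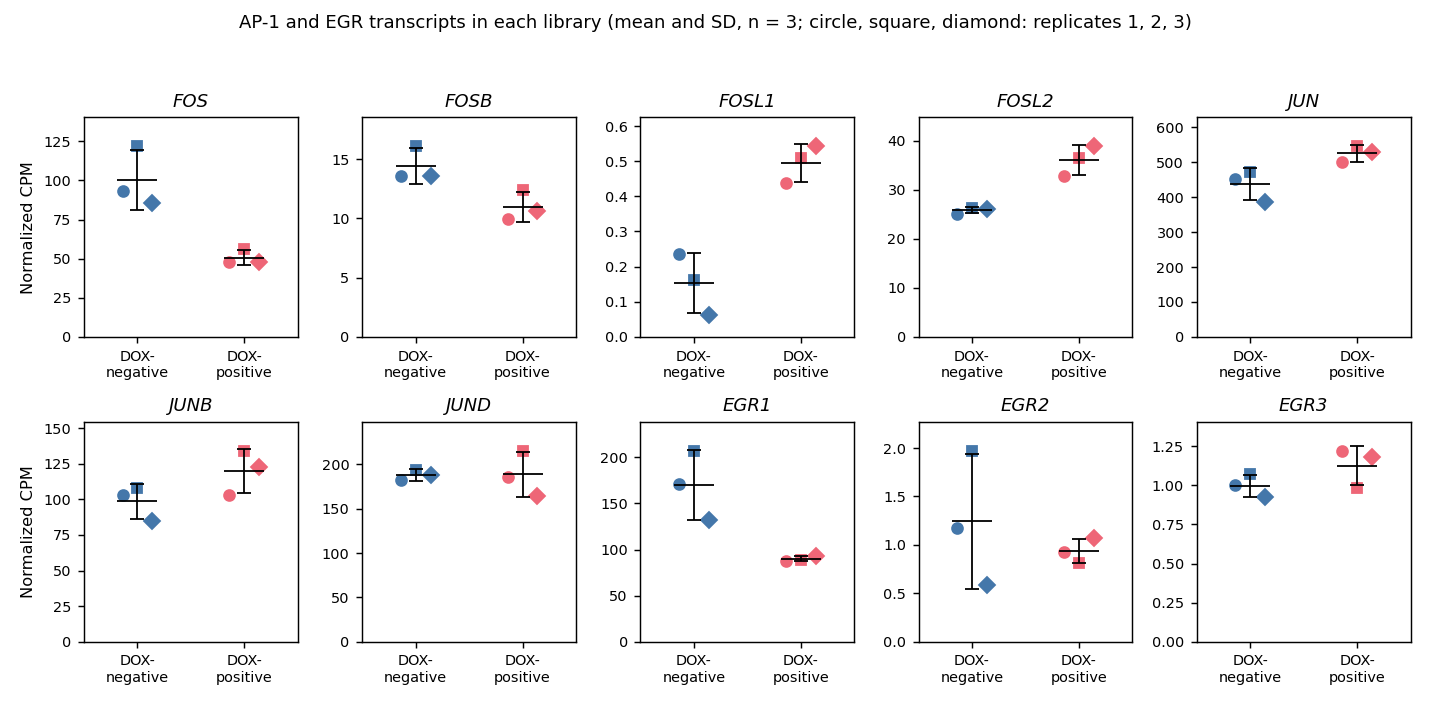
Normalized CPM (counts scaled to library size with TMM factors) of the 10 genes in each of the 6 libraries, with 1 symbol per replicate, horizontal lines at the group means and bars of 1 SD (n = 3). FOS and EGR1 lie lower and FOSL1 and FOSL2 higher in all 3 DOX-positive libraries, and the DOX-negative EGR1 values spread from 132 to 207 CPM while the DOX-positive ones lie between 87.7 and 93.5 CPM.

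FOS, the prototype Fos protein with a strong activation domain, is encoded at chr14:75278828-75282230 on the plus strand (GRCh38.p14). It had 93.3, 122 and 85.4 CPM in DOX-negative replicates 1, 2 and 3 and 48.0, 56.1 and 48.0 CPM in the DOX-positive replicates. All DOX-positive libraries lay below all DOX-negative ones, and DOX-negative replicate 2 was the highest. The means were 100.4 ± 19.4 and 50.7 ± 4.70 CPM (SD, n = 3), a 1.98-fold lower level with DOX. The log2 fold change was -0.99 (edgeR, SE 0.12, 95% interval -1.25 to -0.72, adjusted p = 0.0024). An exact permutation test over the 6 libraries gave its smallest possible two-sided p, 0.10, as it did for every member without overlap. The call held in all 6 fits that left out 1 library (-1.09 to -0.82). It was lost in the 3 fits of deposited TPM (counts corrected for gene length and then scaled to the same sum), where the change was -0.90, -0.94 and -0.90 with adjusted p values of 0.054, 0.059 and 0.45, and held after TPM were rescaled over protein-coding genes (-0.98, adjusted p = 0.0091).

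FOSB (chr19:45467996-45475179, plus strand) encodes the closest relative of FOS and also carries an activation domain. Its levels were 13.6, 16.1 and 13.6 CPM without and 9.98, 12.4 and 10.6 CPM with DOX. The groups did not overlap in CPM, although in TPM they did. The log2 fold change of -0.40 (SE 0.11, 95% interval -0.64 to -0.15) had an edgeR adjusted p of 0.064 and was not called. It passed in DESeq2 (adjusted p = 0.020), without the count filter (0.039) and without DOX-positive replicate 2 (0.029). FOSB overlaps ERCC1 on the opposite strand, a gene with 7089 counts over the 6 libraries against 2511 and 2216 for FOSB in the DOX-negative and DOX-positive groups, and the strand setting of the counting is not given in the sources used here.

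FOSL1 and FOSL2 encode FRA1 and FRA2, Fos proteins that lack the potent activation domain of FOS. FOSL2 (chr2:28392858-28417317, plus strand) had 25.1, 26.3 and 26.0 CPM without and 32.7, 36.5 and 38.9 CPM with DOX. The DOX-negative libraries were tightly grouped, and every DOX-positive library exceeded them. The means were 25.8 ± 0.59 and 36.0 ± 3.09 CPM (SD, n = 3), 1.40-fold higher with DOX, for a log2 fold change of 0.48 (edgeR, SE 0.087, 95% interval 0.29 to 0.67, adjusted p = 0.012). That call was lost without DOX-negative replicate 2 (0.49, adjusted p = 0.069), without DOX-negative replicate 3 (0.48, adjusted p = 0.082) and in the 3 deposited-TPM fits.

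FOSL1 (chr11:65892049-65900545, minus strand) was the least abundant member. It had 15, 10 and 3 counts in the DOX-negative and 33, 28 and 40 counts in the DOX-positive libraries, which correspond to 0.235, 0.162 and 0.063 CPM and to 0.437, 0.509 and 0.543 CPM. The groups did not overlap, and DOX-negative replicate 3, the shallowest library, was the lowest. FOSL1 exceeded the count filter in 2 DOX-negative and 3 DOX-positive libraries. Its log2 fold change was 1.62 (edgeR, SE 0.36, 95% interval 0.83 to 2.41, adjusted p = 0.028), or 1.46 with a larger prior count of 2. The call was lost without DOX-negative replicate 2 (adjusted p = 0.106), DOX-negative replicate 3 (0.115), DOX-positive replicate 2 (0.057) or DOX-positive replicate 3 (0.080), and a pseudogene, FOSL1P1, may share its reads.

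**Figure D2:**
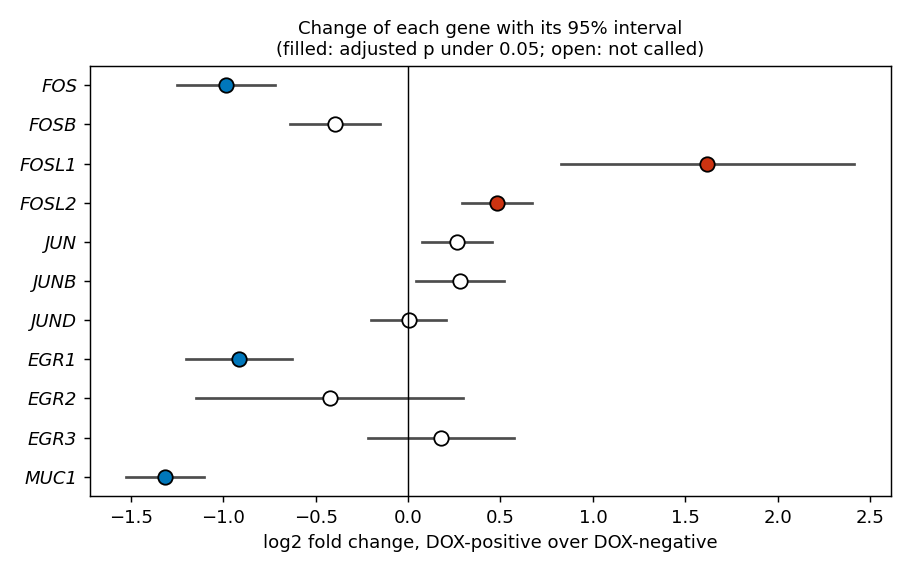
Log2 fold change of each gene with DOX (x axis), with MUC1 for reference. Points are edgeR estimates, lines are 95% intervals, and filled points passed an adjusted p under 0.05. FOS and EGR1 lie near -1, FOSL2 at 0.48 and FOSL1 at 1.62 with the widest interval, and JUND lies at 0.0049.

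None of the 3 Jun genes was called in any of the alternatives run. JUN (chr1:58780791-58784047, minus strand), the founding AP-1 subunit, had 452, 473 and 385 CPM without and 500, 546 and 530 CPM with DOX. The groups did not overlap in CPM but did in TPM, at 54.7 to 86.9 without and 75.1 to 103 with DOX. Its log2 fold change was 0.27 (edgeR, SE 0.087, 95% interval 0.078 to 0.45, adjusted p = 0.099).

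JUNB (chr19:12791486-12793315, plus strand), a Jun protein that can restrain JUN activity, had 103, 108 and 84.9 CPM without and 103, 134 and 123 CPM with DOX. Its groups overlapped, with a log2 fold change of 0.28 (edgeR, SE 0.11, 95% interval 0.043 to 0.52, adjusted p = 0.16). JUNB overlaps HOOK2 on the opposite strand, which had 14913 counts in all against 17305 and 24230 for JUNB in the DOX-negative and DOX-positive groups. JUND (chr19:18279694-18281622, minus strand), the Jun gene known for steady expression, had 182, 194 and 188 CPM without and 186, 215 and 164 CPM with DOX. Its means were 188 ± 6.41 and 189 ± 25.7 CPM (SD, n = 3), and the log2 fold change of 0.0049 (edgeR, 95% interval -0.20 to 0.21, adjusted p = 0.98) changed sign under RLE scaling (-0.0022) and with no scaling factors (-0.0080).

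EGR1 (chr5:138465479-138469303, plus strand), the main EGR factor in these cells, fell alongside FOS. It had 171, 207 and 132 CPM in DOX-negative replicates 1, 2 and 3 and 87.7, 89.2 and 93.5 CPM in those with DOX. The groups did not overlap, and the spread was far wider without DOX, with a coefficient of variation of 22.2% against 3.33%. This difference in spread was not tested. The means were 169.9 ± 37.8 and 90.1 ± 3.00 CPM (SD, n = 3), 1.89-fold lower with DOX, with a log2 fold change of -0.92 (edgeR, SE 0.13, 95% interval -1.20 to -0.63, adjusted p = 0.0058). The call was lost without DOX-positive replicate 2 (-0.91, adjusted p = 0.084) and in the 3 deposited-TPM fits (adjusted p from 0.129 to 0.626). In TPM the groups were still separate, at 19.9 to 40.4 without and 13.0 to 19.3 with DOX, the nearest values differing by little.

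EGR2 and EGR3, relatives best known from nerve and lymphocyte development, were sparsely counted. EGR2 (chr10:62811996-62819167, minus strand) had 75, 122 and 28 counts without and 70, 45 and 79 counts with DOX. Its DOX-negative libraries ranged from 0.588 to 1.97 CPM, on both sides of the DOX-positive ones, and the log2 fold change was -0.42 (edgeR, SE 0.33, 95% interval -1.15 to 0.30, adjusted p = 0.51). Without DOX-negative replicate 2 it was 0.069. EGR3 had 64, 66 and 44 counts without and 92, 54 and 87 counts with DOX, overlapping groups and a log2 fold change of 0.18 (edgeR, SE 0.18, 95% interval -0.22 to 0.58, adjusted p = 0.63). A change of the size seen for FOS lies inside the EGR2 interval and outside the EGR3 interval.

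Within the DOX-negative group several members were ordered alike. Replicate 2 was the highest of the 3 for 9 of the 10 genes and replicate 3 the lowest for 7, among them FOS, JUN, JUNB, EGR1 and EGR2. Replicate 3 was also the library with the fewest counts, 47620696, and the part of depth in this ordering was not tested. In the DOX-positive group no replicate was the highest for more than 5 of the 10, and replicate 1 was the lowest for 6.

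TPM, which are comparable between genes, ranked the members by their mean over the 6 libraries. JUN was highest at 81.1 TPM, followed by JUND at 55.8, JUNB at 35.4, EGR1 at 23.5 and FOS at 20.3 TPM. FOSL2 (4.28 TPM) and FOSB (1.86 TPM) were lower, and EGR2 (0.199), EGR3 (0.131) and FOSL1 (0.111 TPM) were lowest. JUN exceeded JUND, JUND exceeded JUNB, and FOS exceeded FOSL2 in 6 of 6 libraries. JUNB exceeded EGR1 in 2 of 3 DOX-negative and 3 of 3 DOX-positive libraries, so this pair was not separated without DOX. EGR3 exceeded FOSL1 in all 3 DOX-negative but 1 of the 3 DOX-positive libraries, so the order of the rarest members was not fixed.

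The make-up of the Fos family differed between the groups in every library. FOS held 81.8, 84.4 and 80.3% of Fos family TPM in the DOX-negative libraries and 67.7, 68.1 and 64.4% in the DOX-positive libraries. The share of FOSL2 was 11.4, 9.37 and 12.7% without and 23.9, 22.9 and 27.0% with DOX. Both shares separated the groups completely, with FOS lower and FOSL2 higher with DOX. A share also rises when other members of the family fall. Summed Fos family TPM were 32.7 ± 9.23 without and 20.4 ± 2.73 with DOX (SD, n = 3). The ratio of FOS to FOSL2 TPM was 7.51 ± 1.36 without and 2.73 ± 0.31 with DOX (SD, n = 3, exact two-sided permutation p = 0.10, the smallest possible with 3 against 3). FOSL1 was a trace component, at 0.158 ± 0.094% of the family without and 0.824 ± 0.081% with DOX, and FOSB held 6.53 ± 0.44 and 7.91 ± 0.30%.

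The Fos share of all AP-1 TPM (7 Fos and Jun genes) was 16.8 ± 1.41% without and 9.99 ± 0.090% with DOX (SD, n = 3), with no overlap. JUN made up 37.8 ± 1.27 and 43.4 ± 1.79% of AP-1 TPM, also without overlap. Such a share also rises when Fos transcripts fall. Within the Jun family the share of JUN overlapped, at 45.44 ± 1.52 and 48.25 ± 2.01% (exact two-sided permutation p = 0.30). The ratio of JUN to FOS TPM was 2.77 ± 0.31 and 6.53 ± 0.41. Jun transcripts therefore outnumbered Fos transcripts in all 6 libraries, by a wider margin with DOX. Summed AP-1 TPM did not separate, at 193 ± 41.3 without and 205 ± 28.6 with DOX (exact two-sided permutation p = 0.80). A sum, unlike a ratio within a library, carries any shift in TPM between libraries. For example, JUND without DOX was at 188 ± 6.41 CPM but 55.3 ± 8.01 TPM (SD, n = 3). The ratio of EGR1 to FOS TPM was 1.13 ± 0.098 and 1.19 ± 0.12 (exact two-sided permutation p = 0.50), with overlapping groups. Such ratios within a library show unequal change of the genes and are not affected by the scaling between libraries.

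**Figure D3:**
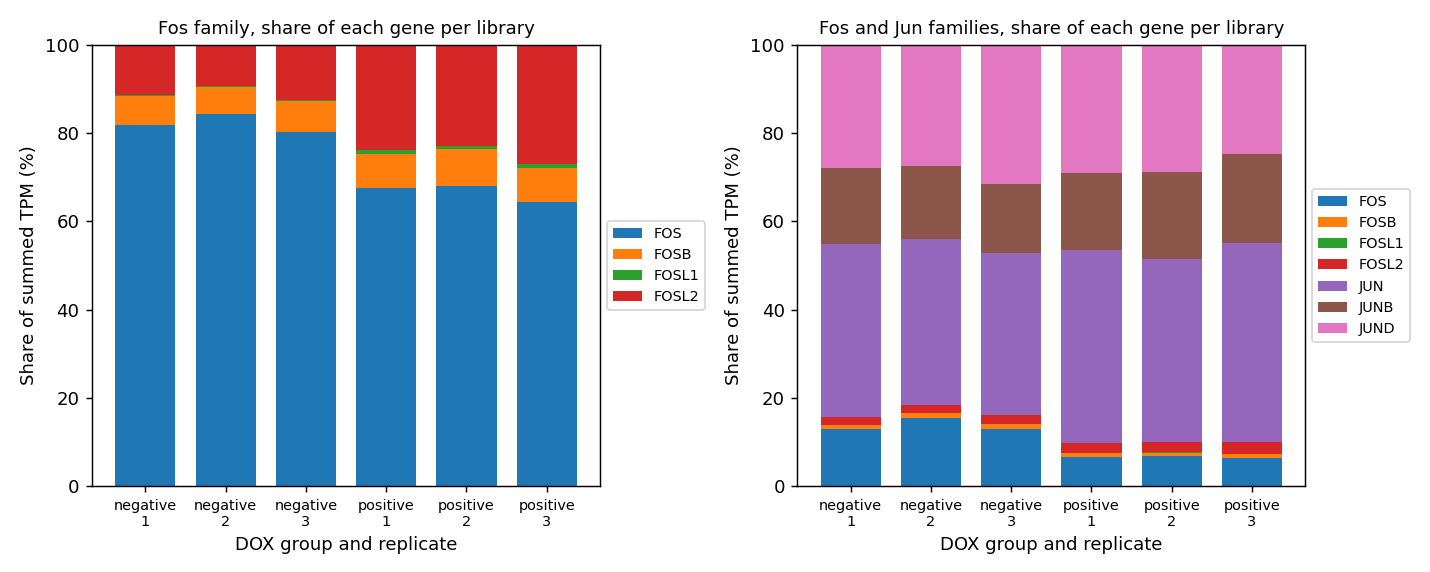
Share of summed TPM (y axis, percent) of each Fos gene within the Fos family (left) and of each Fos and Jun gene within both families (right), with 1 bar per library. FOS takes 80.3 to 84.4% of the left bars without DOX and 64.4 to 68.1% with DOX, FOSL2 takes 22.9 to 27.0% with DOX, and Jun genes fill most of every bar on the right.

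The genes that act with, above and below these factors were examined in lists written by hand from general knowledge, with earlier results of these data known. They were counted with the same calls, and the median log2 fold change of all tested genes was 0.00034. Of 152 genes in 8 lists, 140 were tested, and 32 rose and 5 fell, against 2.91% higher and 1.96% lower of all 17026 tested genes. With 1 library left out this count of 37 stood between 8, without DOX-negative replicate 3, and 36, and it was 15 without DOX-negative replicate 2.

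Among other immediate early genes, 14 of 34 tested rose and 0 fell by edgeR, with a median log2 fold change of 0.28. DESeq2 tested 35 and called 15 higher and 0 lower, and by each tool 1 was lower at an unadjusted p under 0.05. MYC, the growth-promoting factor, changed by 0.72 (edgeR adjusted p = 0.0091), EGR4, a further EGR gene of low abundance, by 0.70 (0.036), TRIB1, a pseudokinase adaptor of the COP1 ubiquitin ligase, by 0.69 (0.010) and RHOB, a small GTPase, by 0.65 (0.0024). Their levels were 20.3 ± 2.49 and 33.5 ± 4.58 CPM for MYC and 53.4 ± 1.81 and 83.9 ± 6.61 CPM for RHOB (SD, n = 3, DOX-negative and DOX-positive). FOS and EGR1 thus moved in the opposite direction to the called genes of this list. For MYC, the study reported by quantitative RT-PCR that its transcripts in H660 cells required MUC1-C, a direction opposite to the rise here. The cause of this difference was not tested. The 20 tested genes that were not called ranged from -0.16 to 0.52 with a median of 0.15, and 15 of them were above 0. At the ends of that range, chosen after their values were seen, were IER2 at -0.16 (adjusted p = 0.30) and CTGF at 0.52 (0.078).

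Of 24 tested bZIP partners, the leucine zipper proteins that can dimerize with Jun or Fos or share their sites, 2 rose and 3 fell (median 0.10). BACH2, a repressor that acts with small MAF proteins, changed by 0.69 (edgeR adjusted p = 0.010) and ATF3, a stress-induced factor, by 0.40 (0.015). MAFA, a large MAF factor, fell by 0.59 on the log2 scale (edgeR adjusted p = 0.028). ATF2, a Jun partner that binds CRE sites, fell by 0.39 (0.036). BACH2 rose from 13.0 ± 1.90 to 20.9 ± 2.35 CPM, and MAFA fell from 11.9 ± 0.49 to 7.98 ± 1.60 CPM (SD, n = 3).

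Upstream, 2 of 28 kinases and SRF partners were called (median 0.015). MAPKAPK2, the kinase downstream of p38 that stabilizes short-lived mRNAs, had 103, 101 and 101 CPM without and 68.3, 72.3 and 67.0 CPM with DOX. The groups were far apart compared with their spread, and the log2 fold change was -0.55 (edgeR, SE 0.070, adjusted p = 0.0025). SRF, which binds CArG boxes such as those of EGR1 shown above, changed by 0.33 (SE 0.074, adjusted p = 0.027). The ERK gene MAPK3, chosen after its values were seen, was at 0.0099 (adjusted p = 0.97). Of 7 corepressor and turnover genes only TRIB1 was called. Neither NAB2 (0.27, adjusted p = 0.19) nor NAB1 (-0.17, 0.32), the EGR corepressors, passed, also named after their values were seen. Heat shock genes, markers of another stress response, had 0 of 12 called by edgeR or DESeq2 and 1 at an unadjusted p under 0.05 (median -0.044).

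Among known AP-1 target genes, 10 of 18 tested rose and 0 fell by edgeR, with a median of 0.66. DESeq2 tested 23 and called 10 higher and 0 lower. At an unadjusted p under 0.05, 0 were lower by edgeR and 1 by DESeq2. PLAU, the urokinase plasminogen activator, had 12.5, 10.6 and 10.7 CPM without and 26.6, 31.8 and 39.8 CPM with DOX, no overlap and a log2 fold change of 1.54 (edgeR, SE 0.14, adjusted p = 0.00080). The collagenase MMP13 had 23, 22 and 22 counts without and 72, 74 and 121 counts with DOX (1.75, SE 0.26, adjusted p = 0.0058). AREG, an EGFR ligand, rose from 1.42 ± 0.24 to 4.00 ± 0.80 CPM (SD, n = 3, adjusted p = 0.0024). Other called genes included FN1, ITGA2, CXCL8, LIF and VIM, listed after their values were seen. Another 8 of the 26 genes, including MMP1, MMP3 and IL6, had too few counts to be tested by edgeR.

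Of 12 EGR target genes 4 rose and 0 fell by both edgeR and DESeq2, with 1 lower at an unadjusted p under 0.05 (median 0.26), while EGR1 itself fell. They were THBS1 (0.92, edgeR adjusted p = 0.0024), an inhibitor of angiogenesis, GDF15 (0.76, 0.0031), a stress cytokine, F3 (0.72, 0.020), the tissue factor, and CDKN1A (0.62, 0.013), the cell cycle inhibitor p21. Among 13 tested genes of ERK feedback and output, 4 rose and 1 fell (median 0.26). SPRY4, a Sprouty inhibitor of receptor signaling, changed by 0.89 (edgeR adjusted p = 0.014), the receptor EPHA2 by 0.79 (0.010), PHLDA1 by 0.78 (0.028) and the nuclear ERK phosphatase DUSP5 by 0.64 (0.044), while DUSP4, a further phosphatase, fell by 0.40 (0.042). FOS and EGR1, themselves transcribed in response to ERK, fell as DUSP4 did and unlike the 4 genes that rose. The 8 tested genes of this list that were not called ranged from -0.30 to 0.53. ERK activity was not tested in these libraries, and RNA levels do not measure it. In immunoblots of H660 cells, the study reported lower phosphorylated ERK after MUC1 silencing.

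Of the 22 genes picked by size of change from the lists, 7 kept their call whichever library was left out (RHOB, MAPKAPK2, PLAU, MMP13, AREG, THBS1 and GDF15). The other 15 lost it in at least 1 such fit, 13 of them without DOX-negative replicate 2 and all 15 without DOX-negative replicate 3.

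**Figure D4:**
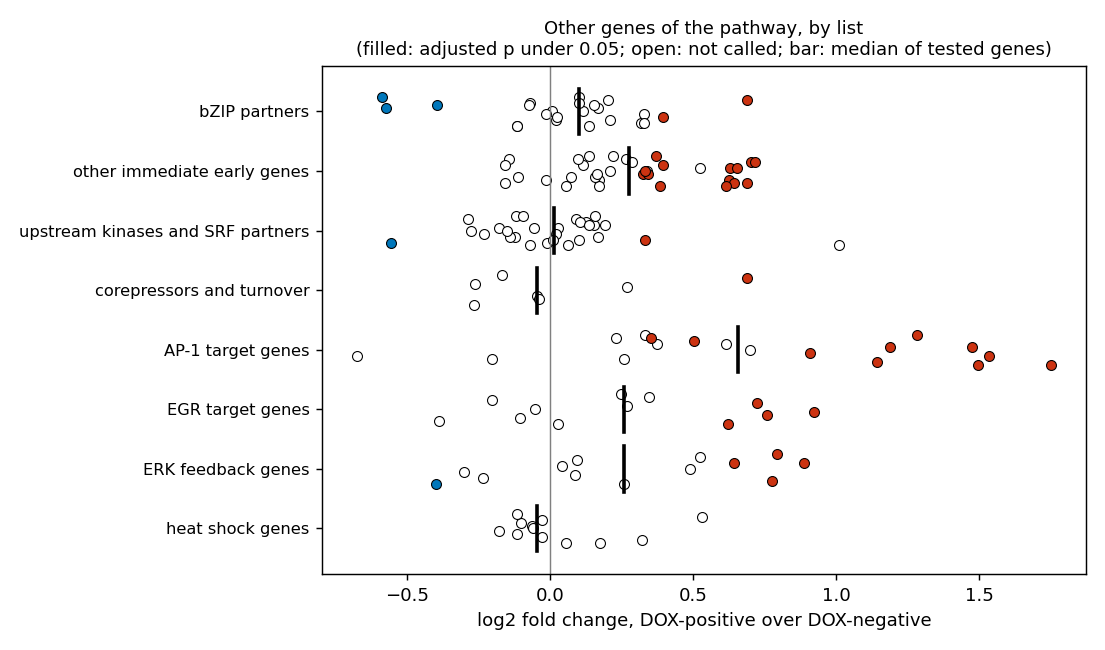
Log2 fold change with DOX (x axis) of the tested genes of the 8 lists (y axis), with 1 point per gene, filled where the adjusted p was under 0.05, and a bar at each list's median. AP-1 target genes have a median of 0.66 and other immediate early genes one of 0.28, while kinases and heat shock genes have medians of 0.015 and -0.044.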

How the data were processed

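RNA-seq was performed on 6 NCI-H660 libraries grouped by their titles. Per the labels, column-purified total RNA went into a stranded mRNA kit. Deposited by the authors were raw gene counts from STAR alignments, and TPM, which they made from counts, gene length and a total of 1000000 per library. The submitters' notes name DESeq2 and the build GRCh38 (hg38), while versions, annotation and strand setting are not given in the sources used here.

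Counts were tested with edgeR 4.0.16 in R 4.3.3 (filterByExpr, TMM factors of 0.967 to 1.03, robust glmQLFit, glmQLFTest, no covariate), with Benjamini-Hochberg adjustment over 17026 genes and calls at an adjusted p under 0.05. All p values of single genes are from this fit unless another tool is named. Normalized CPM use TMM factors, and intervals are 95%. The biological coefficient of variation was 9.58%, and no libraries of 1 group were duplicates (chi-square 16.8 to 103 per degree of freedom).

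The genes named by rule are the 10 members, MUC1, up to 4 called genes per list with the largest absolute change, and the nearest expression patterns. Other list genes given by name, among them ATF2 and DUSP4, fall outside this rule and were named with their values known. A few genes of the lists are counted but not reported here by name. The members and lists were chosen with earlier results of these data known. Older symbols were matched through RefSeq names, which also gave loci and biotypes (GRCh38.p14), and overlapping genes came from RefSeq and GENCODE. In simulated counts for this comparison, 69.5% of 200 genes changed by a log2 fold change of 0.5 were recovered (16879 genes tested). For a change of 1 it was 98.5% of 200 (16912 genes tested). Another 7 and 10 unchanged genes were called. The genes to be changed had an expected mean of at least 50 counts, so these rates do not cover FOSL1, at a mean of 21.5. The spread between libraries was taken from the edgeR fit.

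Other settings tried were RLE, upper-quartile or no scaling, no filter and a filter of 50 counts in 3 libraries, DESeq2 1.42.0, limma 3.58.1 (voom on counts, trend on log2 TPM after adding 1 or 0.1, filtered at a mean TPM of 1 or unfiltered), no robust option, a prior count of 2, a replicate block and leaving out each library. Protein-coding genes only, in counts and in rescaled TPM, were added after seeing the data.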

Additional observations from a re-analysis of the deposited data

How the results depend on the processing

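The 829 genes called in all became 1355 in DESeq2, 486 in TPM rescaled over protein-coding genes, and 30, 35 and 0 in the deposited-TPM fits with log2(TPM + 1) and log2(TPM + 0.1) filtered and log2(TPM + 1) unfiltered (limma, 1248 at an unadjusted p under 0.05 in the last). Leaving out 1 library gave 58 to 1035 genes, with 127 and 58 without DOX-negative replicates 2 and 3 and 375 without DOX-positive replicate 3. The 4 members called became 3 in TPM rescaled over protein-coding genes (FOS, EGR1 and FOSL2, with FOSL1 not tested) and 0 in all 3 deposited-TPM fits (limma, 2, 2 and 4 at an unadjusted p under 0.05; edgeR 4, DESeq2 5) and 2 to 4 with 1 library left out. Without DOX-negative replicate 2 or 3 the 2 calls were FOS and EGR1. The 37 genes of the pathway lists became 4, 4 and 0 in these TPM fits (30 unadjusted in the last) and 8 to 36 with 1 library left out. FOS kept its call in 18 of 21 alternatives, EGR1 in 17 of 21, FOSL2 in 16 of 21 and FOSL1 in 12 of 17, and their directions held in each. These totals include the prior count of 2, which left the adjusted p values unchanged and so could not alter a call. JUN and JUNB were not called in any of 21. The cause was not tested. In the replicate block fit 998 genes and 5 members were called (FOSB joined with an adjusted p of 0.032, and 36 pathway genes, 1 of them a heat shock gene), 750 of the 998 shared with the 829. Libraries sharing a number had within-group deviations that correlated at -0.54, 0.019 and -0.10 over 14587 genes. The labels do not say whether a shared number marks a shared culture or day, so pairing by number was not settled.

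JUND changed sign under RLE scaling (-0.0022), no scaling (-0.0080), the stricter filter (-0.0016), DESeq2 (-2.35e-05), limma-voom (-0.0046), the block (-0.0031), protein-coding genes (-0.014) and rescaled TPM (-0.015), and ranged from -0.098 to 0.096 with 1 library left out. EGR2 ranged from -0.74 to 0.069 there. FOSL1, EGR2 and EGR3 had the fewest counts, with means of 21.5, 69.8 and 67.8 per library.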

Other observations

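Over the 6 libraries, the genes whose log2 CPM followed FOSL1 most closely were TXLNA (Pearson r = 0.9957), DLX4 (0.9953) and RBP7 (0.9943), out of 14587 compared. For JUN, the most abundant member, they were FAM83G (0.9976), GRB2 (0.9972) and TGFBR3L (0.9938). None of these 6 genes was called by edgeR (adjusted p from 0.077 to 0.33). The points are 6 libraries that share 2 groups and their depths, so the values are descriptions of pattern and carry no test.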
